A study of Sus scrofa with 20 samples.

Results

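CFTR, SLC9A3R2 and KCNN4 encode a chloride channel, a scaffold protein and a potassium channel of the epithelium, and their expression was described in the ileal mucosa of suckling and weaned piglets. The members were all probe sets that the annotation of the array assigns to these gene symbols. Each gene had 1 probe set, so that there were 3 members among 24123 probe sets, or 3 among the 6765 gene symbols that a probe set carried alone. The genes were chosen by earlier results of these same arrays, their levels by group included, so that every comparison among the groups counts as used in the choice. Their levels and differences are therefore a description, with no test.

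CFTR is a chloride and bicarbonate channel of the apical membrane that opens after phosphorylation by protein kinases dependent on cyclic AMP or cyclic GMP. It is the main route by which crypt cells of the small intestine secrete chloride, with water following, and bacterial enterotoxins that raise cyclic nucleotides act through it. SLC9A3R2, also called NHERF2, is a scaffold with PDZ domains that tethers CFTR and the sodium/hydrogen exchanger SLC9A3 to ezrin and the actin skeleton below the brush border. KCNN4 is a potassium channel opened by calcium through calmodulin. It lets potassium leave the cell and so keeps the driving force for chloride exit, and it is also the calcium-activated potassium channel of activated T cells, macrophages and erythrocytes.

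The data were 20 arrays, each of 1 crossbred (Landrace × Large white × Duroc) piglet, with scraped ileal mucosa as the tissue. Suckling piglets were kept from the feed of the sow and were sampled at 14 days (S14D, n = 3), 21 days (S21D, n = 4), 28 days (S28D, n = 4) and 35 days of age (S35D, n = 3). The weaned piglets left the sow at 21 days of age, received a commercial diet and were sampled at 28 days (21W28D, n = 3), 7 days after weaning, or at 35 days (21W35D, n = 3), 14 days after weaning. Piglets shared litters, but the sources used here do not say which arrays came from the same litter. Piglets were anaesthetised with sodium pentobarbital and then killed by exsanguination. The labels name no drug treatment and no modified allele for any group.

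Values are gcRMA values on the log2 scale, which ran from 2.08 to 16.41, and a value within 1 log2 unit of 2.08 is called at the floor. Of all values, 41.5% were at the floor, array medians were 5.07 to 5.35, and no array had a correlation under 0.97 with the mean of the rest of its group. The defining markers of an ileal epithelium were bright in every array, as EPCAM ranged from 14.44 to 15.21, VIL1 from 13.06 to 14.99 and FABP6 from 13.27 to 16.07. Doubt attaches to the labels S35D and 21W28D. Each of the 3 arrays labelled S35D was closer in correlation to the 21W35D mean than to the S28D mean. Of the arrays labelled 21W28D, 2 of 3 were closer to S28D than to 21W35D. The same measure also misplaced arrays of 21W35D, a label not in doubt. Replicate 1 of 21W35D correlated at 0.995 with S28D and 0.9896 with the rest of its group, and replicate 3 at 0.9935 and 0.9918. Replicate 2 went the other way, at 0.9623 and 0.9704. Replicate 3 of S35D was closest to its own group (0.9939, against 0.9932 for 21W35D). As they do not separate these groups, the correlations cannot decide whether the labels were exchanged. Over all probe sets, limma called 1570 from S28D to S35D as labelled (5600 at an unadjusted p under 0.05) and 0 between S28D and 21W28D (451 unadjusted), and exchanging the labels exchanges these counts. Results for these groups are given by the deposited label and, where they differ, with both labels exchanged.

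CFTR was above the floor in S14D piglets only. The probe set read 3.11, 3.20 and 4.16 in the 3 S14D arrays (3.49 ± 0.58, SD, n = 3), and 1 of the 20 arrays reached 4 log2 units. In the other 17 arrays it was at the floor, with a median of 2.08 and a highest value of 2.22, and 14 of them shared the lowest value of the table. The arrays of S14D and of all later or weaned groups therefore did not overlap, but the signal was dim even where it was present. Group means were 2.08 for S21D, 2.10 for S28D, 2.13 for arrays labelled S35D, 2.09 for arrays labelled 21W28D and 2.08 for 21W35D.

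From S14D to S21D the mean of CFTR differed by -1.41 log2 units (SE 0.17 from the limma fit), and the lowest S14D array stood 1.02 units above the highest S21D array. This SE pools the spread of all groups. The SD of CFTR was 0.58 in S14D and 0 to 0.08 in the groups at the floor, so that the SE understates the spread among S14D piglets. As the later groups were at the floor, the difference is between a dim signal and no measurable signal, and no fold is given. The third S14D array was the highest, and the difference was -1.07 without that array. Across the other 6 comparisons, of consecutive ages and of weaned with suckling piglets, the CFTR difference lay between -0.04 and 0.03 log2 units. At the floor these values carry no information on whether CFTR changed after 21 days of age or with weaning.

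SLC9A3R2 was dim but above the floor in all 20 arrays. The probe set read 4.52, 4.68 and 4.62 in S14D arrays, and 4.15, 3.99, 3.80 and 3.99 in S21D arrays. In S28D arrays it read 4.32, 3.81, 3.80 and 3.76. S14D was thus the highest group, and 9 of the 20 arrays reached 4 log2 units. The arrays labelled S35D read 4.22, 4.06 and 3.99, and those labelled 21W28D read 4.49, 3.99 and 3.95. The 21W35D arrays read 3.99, 4.03 and 3.99. Outside S14D the groups overlapped, and the gap between the lowest S14D array and the highest array labelled 21W28D was 0.03 log2 units.

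From S14D to S21D SLC9A3R2 was lower by a fold of 0.648 (log2 difference -0.62, SE 0.14), with a gap of 0.37 log2 units between the groups. The same direction was seen whichever array was left out, with differences from -0.68 to -0.56. In the other comparisons all groups overlapped. The log2 differences were -0.06 (SE 0.13) from S21D to S28D, 0.17 (SE 0.14) from S28D to S35D and 0.16 (SE 0.14) from S21D to 21W28D. Weaned piglets differed from suckling piglets of the same age by 0.22 (SE 0.14) at 28 days and -0.08 (SE 0.15) at 35 days, and 21W35D from 21W28D by -0.14 (SE 0.15). These are 1 to 2 standard errors or less, and with the labels exchanged they stayed between -0.14 and 0.22.

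KCNN4 was the brightest of the 3 probe sets and the one with the opposite course. It read 5.87, 5.18 and 5.45 in S14D arrays (5.50 ± 0.35, SD, n = 3), and 6.53, 6.90, 6.98 and 7.17 in S21D arrays (6.89 ± 0.27, n = 4). In S28D arrays it read 6.91, 6.93, 6.74 and 6.92 (6.87 ± 0.09, n = 4). Every S14D array was thus below every array of the other groups, which ranged from 5.92 to 8.50 with a median of 6.93. The arrays labelled S35D read 8.50, 7.03 and 8.08 (7.87 ± 0.76, n = 3), and those labelled 21W28D read 6.67, 6.92 and 5.92 (6.50 ± 0.52, n = 3). The 21W35D arrays read 7.37, 7.62 and 6.97 (7.32 ± 0.33, n = 3). The highest values of the series were 2 of the arrays labelled S35D, at 8.50 and 8.08.

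**Figure D1:**
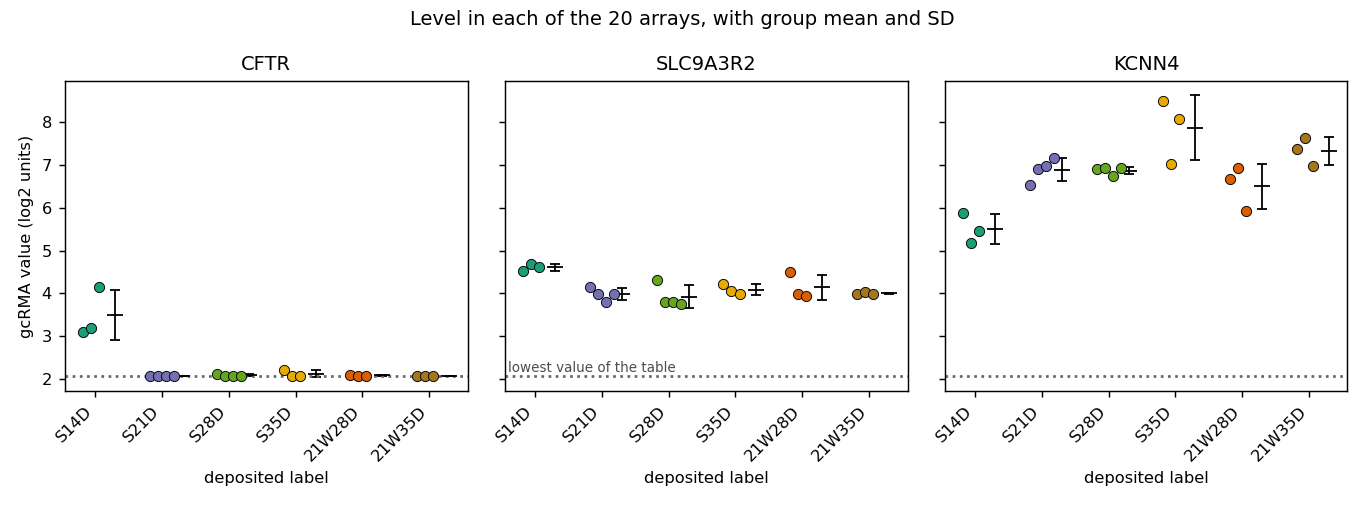
Level of CFTR, SLC9A3R2 and KCNN4 (gcRMA value, log2 units) in each of the 20 arrays by deposited label, with points for arrays, a bar for the group mean and whiskers for the SD. CFTR is above 3 log2 units only in the 3 S14D arrays and at or next to the dotted line, the lowest value of the table (2.08), in the other 17, SLC9A3R2 is highest in S14D, and KCNN4 is lowest in S14D.

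KCNN4 was 2.63-fold higher in S21D than in S14D (log2 difference 1.39, SE 0.31), with a gap of 0.66 log2 units, and the difference was 1.23 to 1.58 with single arrays left out. From S21D to S28D it differed by -0.02 (SE 0.29). From S28D to S35D it was higher by 1.00 (SE 0.31), with a gap of 0.10 between the groups, and by 1.42 without the second array labelled S35D. From 21W28D to 21W35D it was 1.76-fold higher (log2 difference 0.81, SE 0.33, gap 0.04). The groups did not overlap in the 3 positive differences given here, the last 2 by a small margin. In random orders, 3 and 4 arrays separate fully with a probability of 0.0571, and 3 and 3 arrays with 0.1. The share of all probe sets whose groups did not overlap was not taken, here or for the other genes.

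The comparisons of weaned with suckling piglets overlapped for KCNN4. It was lower in 21W28D than in S28D by a log2 difference of -0.37 (SE 0.31), and than in S21D by -0.39 (SE 0.31), and without the third 21W28D array, the lowest of its group, these were -0.08 and -0.10. In 21W35D it differed from arrays labelled S35D by -0.55 (SE 0.33), or by -0.97 without the second and -0.24 without the first of them. These directions rest on the labels in doubt. After exchanging the S35D and 21W28D labels, KCNN4 differed by -0.37 from S28D to S35D, by 0.98 from S21D to 21W28D, by 1.00 between S28D and 21W28D, by 0.81 between S35D and 21W35D, and by -0.55 from 21W28D to 21W35D. The difference between S14D and S21D does not involve these groups.

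**Figure D2:**
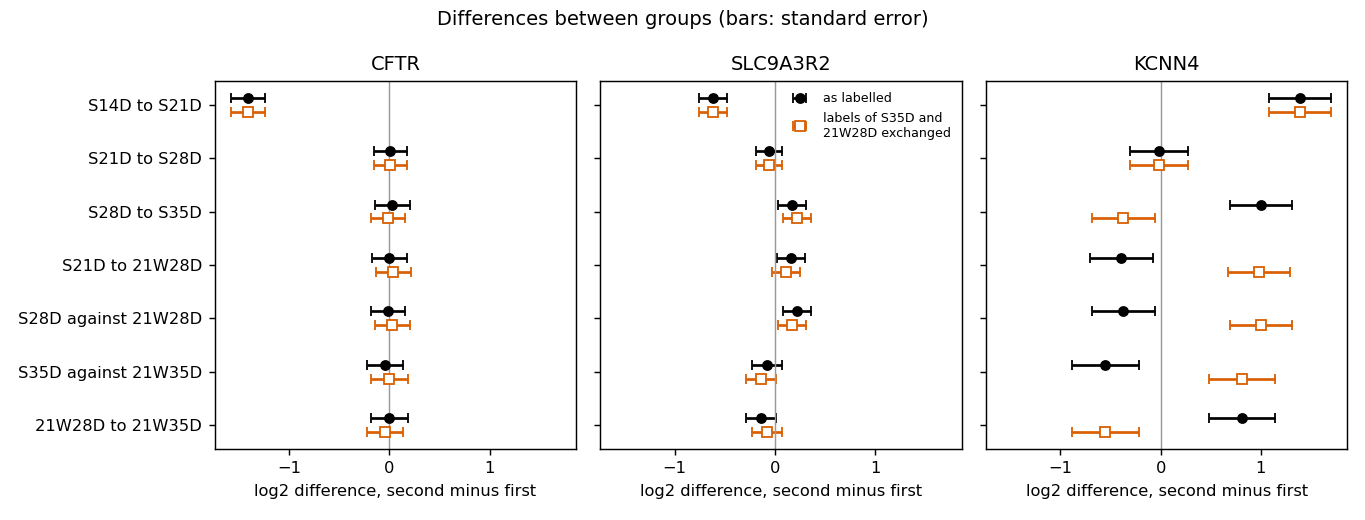
Log2 difference (second group minus first) of each gene in 7 comparisons, with bars for the standard error, as labelled (filled circles) and after exchanging the S35D and 21W28D labels (open squares). The first comparison, S14D to S21D, shows CFTR at -1.41, SLC9A3R2 at -0.62 and KCNN4 at 1.39, and the 5 KCNN4 comparisons that include a group in doubt change sign with the labels.

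In order of mean level, KCNN4 was highest in arrays labelled S35D (7.87), followed by 21W35D (7.32), S21D (6.89), S28D (6.87), arrays labelled 21W28D (6.50) and S14D (5.50). Neighbours in this order overlapped, except that the lowest array labelled 21W28D lay 0.05 log2 units above the highest S14D array. For SLC9A3R2 the order was S14D (4.61), arrays labelled 21W28D (4.14), arrays labelled S35D (4.09), 21W35D (4.00), S21D (3.98) and S28D (3.92), with S14D alone set apart. The interaction, which asks whether the difference between weaned and suckling piglets was the same at 35 as at 28 days, was -0.04 (SE 0.25) for CFTR, -0.31 (SE 0.21) for SLC9A3R2 and -0.18 (SE 0.46) for KCNN4. For CFTR all of these groups were at the floor, so that its value and SE carry no information.

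The mucosa is a mixture of cells, and in such bulk samples fewer cells of a type and less RNA per cell cannot be told apart. Marker lists were scored as the mean of their genes after centring each on the 20 arrays. The T cell score (6 of 7 measured genes, as CD4 did not reach 4 log2 units in any array) was -2.22 to -1.29 in S14D and -0.80 to 0.10 in S21D. The macrophage score (5 of 6 measured genes) was -1.13 to -0.93 in S14D and -0.30 to 0.27 in S21D. Both lists were thus lowest in S14D, as KCNN4 was. Of the T cell genes 4 of 7 rose from S14D to S21D in the limma fit, as did 3 of 6 macrophage genes and 2 of 3 B cell genes, where 7.27% of all probe sets rose. Their part in the difference of KCNN4 was not tested.

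From S28D to S35D, where KCNN4 was also higher, 0 of 7 T cell genes and 0 of 6 macrophage genes passed the limma test, also at an unadjusted p under 0.05 (0 and 0), and the groups overlapped in both scores. The T cell score was -0.50 to 0.69 in S28D and 0.01 to 0.46 in arrays labelled S35D, and the macrophage score -0.53 to 0.34 and 0.03 to 0.83. The B cell score went the other way, from 0.33 to 1.24 in S28D to between -2.20 and 0.16 in arrays labelled S35D, with 0 of 3 genes past the limma test and 2 lower at an unadjusted p under 0.05. In that comparison 4 of 12 epithelial genes rose, where 3.53% of all probe sets rose. All 12 were higher at an unadjusted p under 0.05, a level passed by 5600 of all 23999 probe sets in either direction. The epithelial score moved from between -0.81 and -0.07 to between 0.33 and 0.75. In arrays labelled 21W28D, a label in doubt, KCNN4 was second lowest and the T cell score was high, at 0.33 to 1.29. In 21W35D, where KCNN4 was second highest, the T cell score was 0.54 to 1.65 and the macrophage score -0.35 to 1.41. Both scores had their highest group mean there, at 1.27 and 0.70. The third array labelled S35D had a smooth muscle score of 2.27, the highest of the series.

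**Figure D3:**
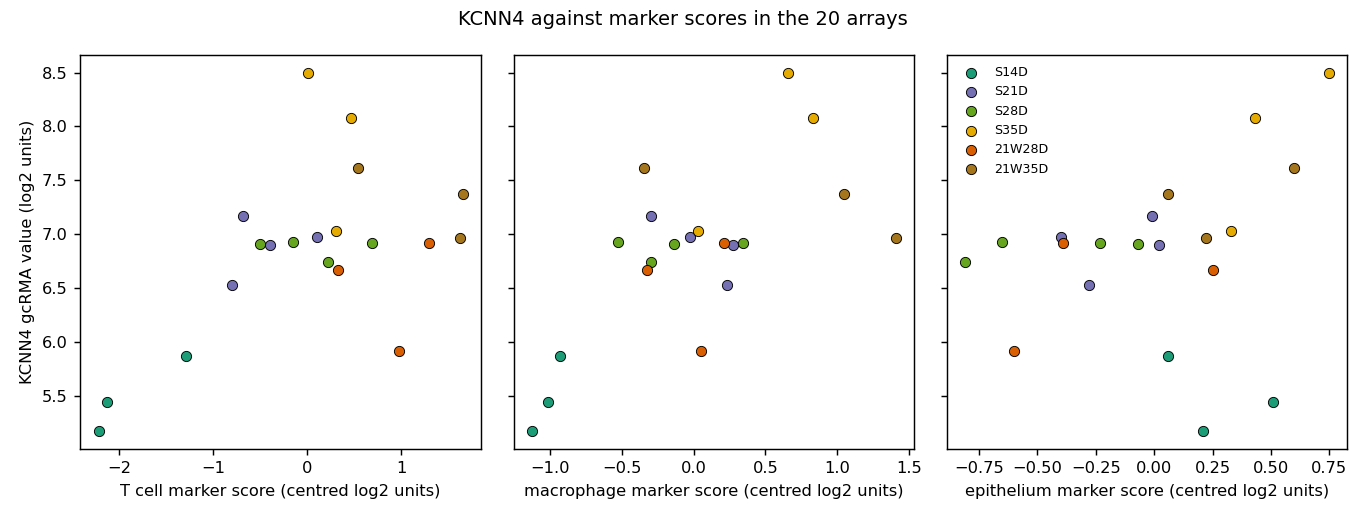
KCNN4 level (gcRMA value, log2 units) against the T cell, macrophage and epithelium marker scores (mean of centred log2 values) of the same array, with 1 point for each of the 20 arrays, coloured by deposited label. The 3 S14D arrays sit lowest in KCNN4 and in the T cell and macrophage scores. The 3 arrays labelled S35D, at 7.03 to 8.50 for KCNN4, do not have the highest T cell scores. These are in 21W35D (1.65 and 1.62), the group with the second highest KCNN4 mean.

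Beside CFTR and SLC9A3R2 stand the lists of crypt, other epithelial and stromal cells. From S14D to S21D 3 of 7 crypt and proliferation genes rose and 1 fell, with a list median of 1.66, opposite to CFTR, where 7.27% of all probe sets rose and 7.63% fell. The crypt score was -1.49 to 0.48 in S14D and -0.06 to 0.21 in S21D, so that the groups overlapped. Of 10 genes of absorptive enterocytes 1 rose, and at an unadjusted p under 0.05 1 was higher and 5 lower, with a median of -0.80. At that level 6822 of all 23999 probe sets passed in either direction. The epithelial score (12 genes) was 0.06 to 0.51 in S14D and -0.40 to 0.02 in S21D, and 0 of the 12 genes passed the limma test between these groups, with 4 lower at an unadjusted p under 0.05. In arrays labelled S35D the epithelial score was 0.33 to 0.75, and CFTR was at the floor in all 3. The smooth muscle score was 0.58 to 0.79 in S14D and -0.43 to -0.11 in S21D, with 1 of 7 genes lower in the limma fit. The endothelial score was 0.51 to 0.72 in S14D and -0.43 to 0.25 in S21D, with 1 of 8 genes lower. The erythrocyte score reached 3.54 in the first S14D array, which had the lowest CFTR and the highest KCNN4 value of its group. The third S14D array, with the highest CFTR value, had the lowest crypt score (-1.49) and B cell score (-3.69) of the series. The B cell scores of the first and second S14D arrays were 0.20 and -1.03. The part of these cells in the differences was not tested.

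The patterns of the 3 members over the 20 arrays were compared as a description, since all points share the same arrays and groups. CFTR had a Pearson correlation of 0.75 with SLC9A3R2, and of 0.46 over the 17 arrays without S14D. KCNN4 had a correlation of -0.66 with CFTR and of -0.53 with SLC9A3R2. Without the S14D arrays these were 0.56 and 0.10, so that the negative values rest on that group. In those 17 arrays CFTR was at the floor, and 14 shared 1 value. The correlations of 0.46 and 0.56 with CFTR therefore carry no information on CFTR after 14 days of age.

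The genes whose pattern was most like that of each member were taken from 2057 probe sets of sufficient level and spread. For CFTR they were GNPTG (r = 0.95), ZNF566 (0.94), PSAP (0.94), AGA (0.94) and NAGPA (0.93). Over the 17 arrays without S14D, where CFTR was at the floor, these correlations were 0.47, 0.16, -0.42, -0.11 and -0.02. The likeness to CFTR is therefore that of genes that were higher in S14D than in the other groups. For SLC9A3R2 the genes were SEPT8 (0.91), CAV2 (0.88), FAIM (0.88), GNAZ (0.87) and PLAGL1 (0.86). Without S14D these correlations were 0.83, 0.80, 0.71, 0.63 and 0.68. The 17 arrays behind these values were also used to choose the genes, so that they are no separate check. For KCNN4 they were ISG12(A) (0.87), HSH2D (0.87), NUCB2 (0.87), XAF1 (0.86) and IFIT1 (0.85), with 0.80, 0.73, 0.73, 0.78 and 0.76 without S14D. After each group mean was subtracted, they were 0.31, 0.29, 0.58, 0.23 and 0.13, so that most of this likeness lay between the groups rather than among piglets of 1 group.

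The other genes of the pathway were taken from 7 lists of textbook genes on chloride and bicarbonate secretion, potassium channels, sodium absorption, PDZ scaffolds, CFTR traffic, signalling to CFTR and calcium sensing of KCNN4. Of 187 such genes other than the members, 108 had a probe set with a single gene symbol, and 82 reached 4 log2 units in at least 1 array. The basolateral chloride importer SLC12A2 and the calcium-activated chloride channel ANO1 were not analysed here. Calls are those of limma at a Benjamini-Hochberg adjusted p under 0.05 over all 23999 probe sets tested.

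From S14D to S21D, 1 of the 108 genes rose (0.926%) and 14 fell (13%), against 7.27% and 7.63% of all probe sets. At an unadjusted p under 0.05, 10 rose and 27 fell, while 6822 of all 23999 probe sets passed in either direction. The median log2 difference was -0.01 against 0 for all probe sets. Most of the genes that fell were in the list of CFTR traffic and quality control, where 11 of 36 fell (30.6%) and 0 rose, with a median of -0.22. At an unadjusted p under 0.05, 16 traffic genes were lower and 5 were higher. Of the 36 traffic genes 35 reached 4 log2 units, while 41.5% of all values were at the floor, where differences are compressed. The share over all probe sets is therefore not that of probe sets of like level, which was not taken. The same limit holds for the other shares set beside all probe sets. The study named traffic of CFTR among its pathways for these same samples, so that this list is not independent evidence of a direction.

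The largest falls among the traffic genes were in DAB2, MYO6 and RAB11A. DAB2, a clathrin adaptor for endocytosis that recruits CFTR to coated pits, read 13.73, 14.23 and 14.34 in S14D and 9.56, 8.14, 9.71 and 11.32 in S21D arrays. Its log2 difference was -4.42 (SE 0.94, limma adjusted p = 0.00819), and its other probe sets differed by -3.28 and -4.33. The S14D and S21D arrays were far apart, although the S21D piglets differed widely among themselves. MYO6, the motor that carries endocytic vesicles inwards along actin, fell by 1.42 log2 units (SE 0.32, limma adjusted p = 0.0119). RAB11A, a GTPase of the recycling endosome from which CFTR returns to the apical membrane, fell by 1.09 (SE 0.23, limma adjusted p = 0.00709), and its second probe set differed by -1.24.

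Smaller falls from S14D to S21D were found in other traffic genes. BAG1, a co-chaperone of HSP70, differed by a log2 value of -0.92, DERL1, a component of the channel that returns misfolded protein from the endoplasmic reticulum, by -0.61, SNAP23, a membrane fusion protein, by -0.60 and RAB7A, a GTPase of late endosomes, by -0.58. Their limma adjusted p-values were 0.00663, 0.0198, 0.000523 and 0.00515. SGK1, a kinase that raises the surface level of ion channels, fell by 1.06 log2 units (limma adjusted p = 0.0462), a call lost in 6 of 7 fits with 1 array left out. CANX (-0.58), RAB11B (-0.50) and CLTA (-0.42) also passed, and are named after their values were seen. The fall of CLTA, clathrin light chain A, holds for its brightest probe set, while another probe set of this gene rose by 0.62 (limma adjusted p = 0.00795). DAB2, RAB7A, SNAP23 and BAG1 passed whichever single array was left out.

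Among the signalling genes 2 of 29 fell (6.9%) and 0 rose in the limma fit, against 7.63% and 7.27% of all probe sets. The share that fell was thus near that of all probe sets. At an unadjusted p under 0.05, 5 were lower and 1 was higher. PRKAA2, a catalytic subunit of AMP-activated kinase, which inhibits CFTR gating, read 7.40, 7.62 and 7.89 in S14D and 4.22, 3.52, 3.59 and 3.83 in S21D arrays. The difference was -3.85 (SE 0.24, limma adjusted p = 1.6e-07), and all arrays of the other groups lay between 3.48 and 4.56, so that only S14D was set apart, as for CFTR. SST, the hormone somatostatin, which inhibits intestinal secretion, fell by 1.27 (limma adjusted p = 0.0395) and lost this call whichever of the 7 arrays was left out. The receptor of the guanylin peptides and of heat-stable enterotoxin, GUCY2C, read 9.66 ± 0.55 in S14D and 9.08 ± 0.36 in S21D (SD, limma adjusted p = 0.454). Its ligand GUCA2A read 12.05 ± 0.09 and 11.48 ± 0.55 (limma adjusted p = 0.476), and the ligand GUCA2B 4.78 ± 0.18 and 4.56 ± 0.22.

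For the partners of the members at the membrane, 0 of 8 chloride and bicarbonate genes, 0 of 7 potassium channels and 0 of 10 scaffolds passed the limma test from S14D to S21D. At an unadjusted p under 0.05, 2 chloride and bicarbonate genes were lower and 0 higher, and 0 potassium channels passed. Of the scaffolds 2 were higher and 2 lower, with a list median of 0.02. SLC9A3R1, or NHERF1, the scaffold closest to SLC9A3R2, read 13.03, 13.24 and 13.61 in S14D and 12.36, 12.77, 12.24 and 12.68 in S21D (fold 0.582, limma adjusted p = 0.0855). PDZK1, a further PDZ scaffold of the brush border, read 14.57 ± 0.33 and 13.75 ± 0.40 (fold 0.565, limma adjusted p = 0.127). Neither gene passed the threshold. In both the groups did not overlap, which random orders of 3 and 4 arrays give with a probability of 0.0571. EZR, or ezrin, read 13.74 ± 0.26 and 13.51 ± 0.14 (limma adjusted p = 0.177). The chloride/bicarbonate exchanger SLC26A3 read 11.84 ± 0.46 and 10.69 ± 0.42 (limma adjusted p = 0.0567), and the exchanger SLC26A6 7.14 ± 0.24 and 7.67 ± 0.36 (limma adjusted p = 0.743).

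Among the potassium channels only 2 of 7 genes reached 4 log2 units. KCNE3, the subunit that holds KCNQ1 open in the basolateral membrane for secretion driven by cyclic AMP, read 9.03 ± 0.29 in S14D and 8.52 ± 0.35 in S21D (limma adjusted p = 0.335). KCNQ1 itself was at the floor in all 20 arrays. SLC9A3, the sodium/hydrogen exchanger that SLC9A3R2 regulates, read 2.08 in all 20 arrays, so that nothing can be said of its level in any group. In the list of sodium absorption 1 of 7 genes rose and 1 fell (14.3% each, against 7.27% and 7.63% of all probe sets). SLC5A1, the sodium/glucose cotransporter, rose by 0.81 (SE 0.26, limma adjusted p = 0.0468), and AQP11, an aquaporin of intracellular membranes, fell by 1.39 (SE 0.42, limma adjusted p = 0.0399). With single arrays left out, the call of SLC5A1 was lost in 6 of 7 fits and that of AQP11 in 5 of 7. The call of SLC5A1, the only rise among the 15, was also lost after median centring (limma adjusted p = 0.0539) and with only the 2 groups in the fit (0.0779). Of the 12 genes of calcium sensing by KCNN4, 0 passed, and 1 rose and 1 fell at an unadjusted p under 0.05.

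The count of 15 genes rests in part on single arrays. It was 7 without the second S14D array, 6 without the third and 9 without the third S21D array.

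**Figure D4:**
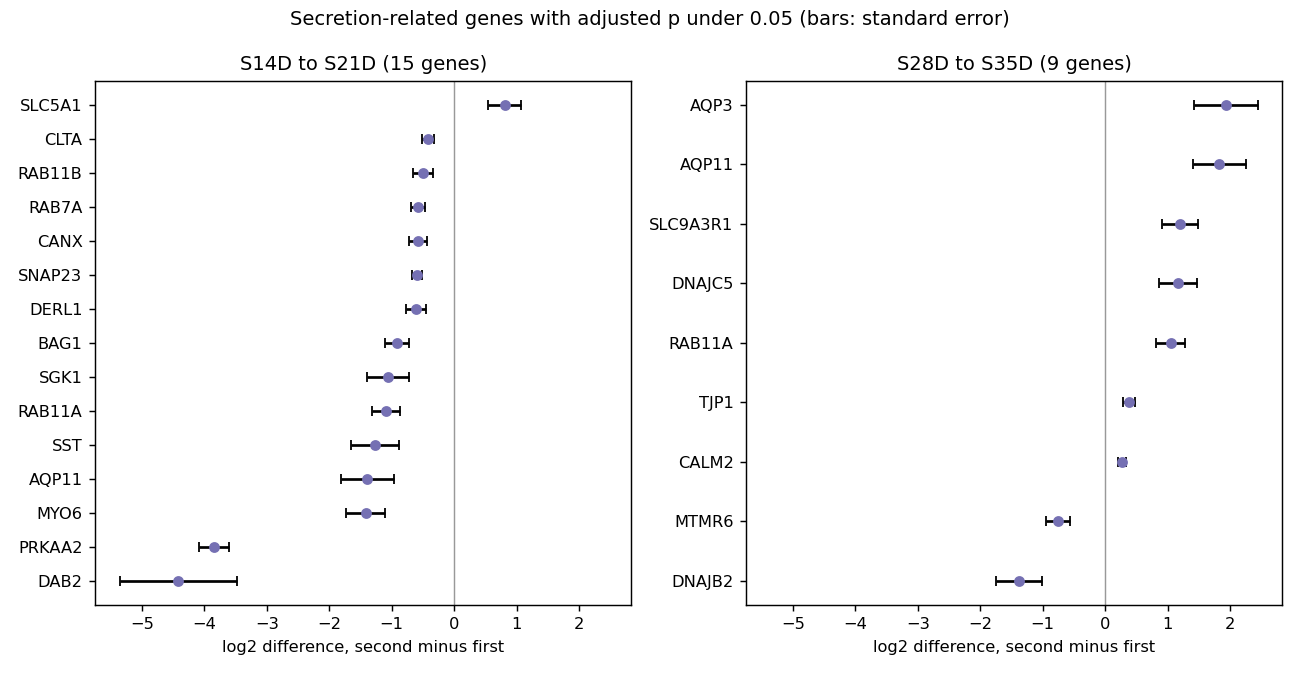
Log2 difference (second group minus first, bars for the standard error) of the listed genes with a limma adjusted p under 0.05, 15 from S14D to S21D and 9 from S28D to S35D. DAB2 (-4.42) and PRKAA2 (-3.85) stand apart on the left, and AQP3 (1.94) and AQP11 (1.83) have the largest rises on the right, a count that was 0 after exchanging the S35D and 21W28D labels.

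From S21D to S28D 0 of the 108 genes passed, against 0.00417% higher and 0% lower among all probe sets. At an unadjusted p under 0.05, 2 were lower, while 389 of all 23999 probe sets passed in either direction. The methods' t-test gave 0 after Benjamini-Hochberg adjustment and 1 at its unadjusted p with a fold of 2. The members differed by 0.01, -0.06 and -0.02 log2 units in this comparison, as given above.

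From S28D to S35D, 7 genes rose (6.48%) and 2 fell (1.85%), against 3.53% and 3.01% of all probe sets, and the median was 0.11. At an unadjusted p under 0.05, 30 were higher and 6 lower, while 5600 of all 23999 probe sets passed in either direction. SLC9A3R1 read 12.35, 11.97, 11.93 and 12.74 in S28D and 13.39, 13.44 and 13.50 in arrays labelled S35D, a 2.29-fold rise (SE 0.29 log2 units, limma adjusted p = 0.0306). This scaffold thus rose where SLC9A3R2 differed by 0.17. RAB11A rose by 1.05 (SE 0.23, limma adjusted p = 0.0198), and DNAJC5, a co-chaperone that acts on CFTR in the secretory pathway, rose by 1.17 (SE 0.30, limma adjusted p = 0.0345). AQP3, a basolateral water and glycerol channel, rose by 1.94 (SE 0.51, limma adjusted p = 0.0397) and AQP11 by 1.83 (SE 0.42, limma adjusted p = 0.0252).

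Of the calcium sensing list CALM2, a calmodulin gene, rose by 0.27 (SE 0.07, limma adjusted p = 0.0383), and MTMR6, a lipid phosphatase that inhibits KCNN4, differed by -0.76 (SE 0.19, limma adjusted p = 0.033). DNAJB2, a co-chaperone, differed by -1.38 (SE 0.37, limma adjusted p = 0.0415). TJP1, a tight junction scaffold, passed with 0.38 (limma adjusted p = 0.0396) from a mean of 2.53 to 2.90 log2 units, next to the floor and with overlapping groups. In the chloride list 0 of 8 genes passed, 3 were higher at an unadjusted p under 0.05 and the median was 0.70. SLC26A3 read 10.68 ± 0.53 and 11.72 ± 0.21 (limma adjusted p = 0.111) and GUCA2A 11.17 ± 0.63 and 12.36 ± 0.33 (limma adjusted p = 0.11). As 4 of 12 epithelial markers rose in the same comparison, with a list median of 0.88, the part of epithelial content in these rises was not tested.

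The calls from S28D to S35D depend on the labels and on the arrays. After exchanging the S35D and 21W28D labels, 0 of the 108 genes passed from S28D to S35D, and 9 passed between S28D and 21W28D. The count was 0 without the second S28D array or the first array labelled S35D, and 1 without the third S28D array or the third array labelled S35D.

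**Figure D5:**
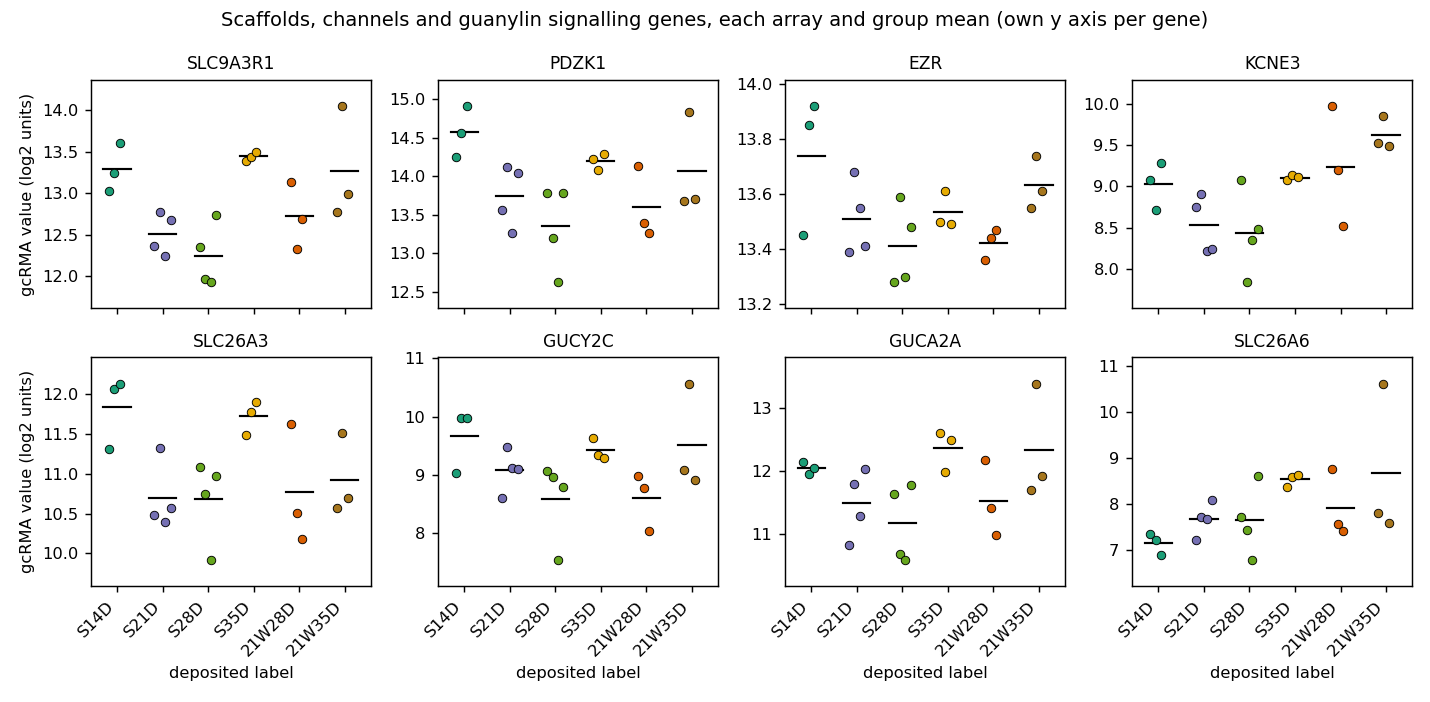
Level (gcRMA value, log2 units, separate axis for each gene) of SLC9A3R1, PDZK1, EZR, KCNE3, SLC26A3, GUCY2C, GUCA2A and SLC26A6 in each of the 20 arrays by deposited label, with a bar for the group mean. SLC9A3R1 has its highest group means in arrays labelled S35D (13.44) and in S14D (13.29), and the second 21W35D array stands above the others of its group in SLC26A6 (10.61) and GUCA2A (13.39).

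For weaning, 0 of the 108 genes passed the limma test in any comparison as labelled. The background was 0% higher and 0% lower from S21D to 21W28D and between S28D and 21W28D. It was 0.0292% and 0.0167% between S35D and 21W35D, and 0.0667% and 0.0125% from 21W28D to 21W35D. At an unadjusted p under 0.05, 1 gene was higher and 2 lower from S21D to 21W28D, and 1 and 0 between S28D and 21W28D. These numbers were 2 and 4 between S35D and 21W35D, and 8 and 1 from 21W28D to 21W35D. Among all 23999 probe sets, 606, 451, 1406 and 2126 passed at that level in the same 4 comparisons, in either direction. The methods' t-test gave 0 in all 4 after adjustment, and at its unadjusted p with a fold of 2 it gave 1 between S35D and 21W35D and 0 in the other 3. After exchanging the S35D and 21W28D labels, 3 genes passed from S21D to 21W28D (2 higher, 1 lower), 9 between S28D and 21W28D (7 higher, 2 lower) and 0 in the other 2 comparisons. In the interaction 0 of the 108 genes passed, against 0% of all probe sets. At an unadjusted p under 0.05, 0 were higher and 3 lower, while 610 of all 23999 probe sets passed in either direction.

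KCNE3 had its highest group mean in 21W35D, at 9.62 ± 0.20. It read 9.23 ± 0.73 in arrays labelled 21W28D, 8.44 ± 0.50 in S28D and 9.10 ± 0.03 in arrays labelled S35D. Its limma adjusted p between weaned and suckling piglets as labelled was 1 at 28 days and 0.927 at 35 days. The 35-day groups as labelled did not overlap, which random orders of 3 and 3 arrays give with a probability of 0.1. SLC9A3R1 read 12.72 ± 0.41 in arrays labelled 21W28D and 13.27 ± 0.69 in 21W35D, PDZK1 13.59 ± 0.47 and 14.07 ± 0.66, and GUCY2C 8.60 ± 0.50 and 9.52 ± 0.91. The second 21W35D array was the highest of its group in each of these 3 genes.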

How the data were processed

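The expression of CFTR, SLC9A3R2, KCNN4 and related genes was analysed in 20 Affymetrix GeneChip Porcine Genome Arrays of 6 groups, assigned by the deposited labels. The deposited values are log2 values, made by the authors with gcRMA in R and Bioconductor, which corrects the background from the GC content of probes, normalizes by quantiles and summarises probes into probe sets. GCOS 1.2, and GCRMA with no version, are named in the processing notes of the submitters. The base of 2 was inferred from the range of the values. gcRMA compresses differences near its floor, and the number of piglets per group limits the precision.

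Of 24123 probe sets, 124 controls were left out and 23999 were tested. Gene symbols came from the platform annotation, in which 10069 tested probe sets have 1 symbol, 198 several and 13732 none. Of those with 1 symbol, 9961 were found in the RefSeq genes of Sscrofa11.1. A gene was represented by its brightest probe set.

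limma 3.58.1 (lmFit and eBayes, R 4.3.3) was fitted over all 20 arrays, with a mean for each group and without a block, and p-values were adjusted by Benjamini-Hochberg over all probe sets. The p-values set differences of group means against the pooled spread between piglets within groups, with piglets treated as independent. Shared litters were not modelled. Differences of the members are given with the standard error of this fit and no p. The members, the gene lists and the tests were chosen with earlier results of these data known.

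The naming rule takes the members, a fixed set of partners where measured, in each comparison up to 8 genes per list with the largest differences among those with an adjusted p under 0.05, and the 5 genes most correlated with each member among probe sets with 1 symbol, a mean of at least 5 and an SD of at least 0.5. Marker lists were described by scores and counts.

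Whether equal replicate numbers pair arrays was checked. Alternatives were dropping probe sets that did not reach 4 log2 units in 3 or more arrays, only the groups compared, robust variance with an intensity trend, centring on the median, a further quantile normalization, the replicate block, exchanged S35D and 21W28D labels, averaging the probe sets of a gene, the methods' t-test and each array left out. The main test was checked on simulated data. Python 3.11.15 with matplotlib 3.10.9 drew the figures. Sequences were not used here.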

Additional observations from a re-analysis of the deposited data

Results flagged for a closer look

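In the groups of 4 arrays, 60 sets of values were examined for a single array apart from the other 3, and 6 were found, where chance gives about 1 in 20. CFTR read 2.13 in the first S28D array and 2.08 in the others, a difference at the floor. SLC9A3R2 read 4.32 in the same array and 3.76 to 3.81 in the other 3. KCNN4 read 6.74 in the third S28D array and 6.91 to 6.93 in the others. AQP3 read 9.49 in the third S21D array against 11.17 to 11.31. TJP1 read 2.50 in that array against 2.53, and KCNQ1 2.52 in the fourth S28D array against 2.56, both next to the floor.

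The difference of SLC9A3R2 between weaned and suckling piglets was 0.22 at 28 days and -0.08 at 35 days, and these directions differ (-0.31 log2 units, the later less the earlier). As this gene was chosen from these data, the difference was not tested.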

How the results depend on the processing

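Signal limits most of these results. The filter on dim probe sets kept 13718 probe sets, 81 of the listed genes and 2 of the 3 members, and dropped CFTR. As each member has 1 probe set, averaging the probe sets of a gene could not change its value. Median centring and repeated quantile normalization moved the median of all probe sets by at most 0.05 log2 units and reversed no called gene.

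From S28D to S35D, 9 listed genes passed. The number was 19 (17 higher, 2 lower) without dim probe sets, of which 7 were among the 9, and 0 with only the groups compared in the fit. It was 0 after exchanging the S35D and 21W28D labels. The methods' t-test gave 14 at its unadjusted p with a fold of 2 and 0 after Benjamini-Hochberg adjustment. The same t-test, unadjusted, gave 1 from S21D to S28D and 1 between S35D and 21W35D, where limma gave 0. From S14D to S21D the number was 15, and 12 to 22 under the alternatives that kept all arrays. The genes were not always the same. The methods' t-test at its unadjusted p with a fold of 2 gave 14, of which 7 were among the 15. After Benjamini-Hochberg adjustment it gave 15, of which 12 were among them, as did the fit with only the groups compared. The cause of these differences was not tested.

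With the labels exchanged, 3 genes passed from S21D to 21W28D and 9 between S28D and 21W28D. From S28D to S35D the differences of AQP11 (-0.11), RAB11A (-0.03) and MTMR6 (0.08) then reversed. The KCNN4 differences became -0.37 (S28D to S35D), 0.98 (S21D to 21W28D), 1.00 (S28D against 21W28D), 0.81 (S35D against 21W35D) and -0.55 (21W28D to 21W35D).

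No sign was found that equal replicate numbers pair the piglets, although this check cannot exclude shared litters. Deviations from the group means were correlated above 0.1 in 20 of 46 pairs of equally numbered arrays and below -0.1 in 19, with a median of 0.03. With the number as a replicate block, 12 genes passed from S14D to S21D and 1 from S28D to S35D. The differences of CFTR, SLC9A3R2 and KCNN4 from S14D to S21D were then -1.40, -0.60 and 1.34.

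With each array left out in turn, 6 to 20 genes passed from S14D to S21D and 0 to 10 from S28D to S35D. Between S35D and 21W35D the count was 0 to 1, with 1 without the third array labelled S35D or the second 21W35D array, and in the interaction 0 to 1, with 1 without the third array labelled S35D. The CFTR difference from S14D to S21D was -1.60 to -1.07. That of KCNN4 was 0.68 to 1.42 from S28D to S35D and -0.97 to -0.24 between S35D and 21W35D.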
